A study of Bos taurus with 16 samples.

Results

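NR4A1, NR4A2 and NR4A3 form the NR4A group of orphan nuclear receptors, and their transcripts were followed through 4 treatments of cultured bovine luteal cells. The members were chosen by name, as the genes of the table of all 16 samples whose symbol is one of these, which gave 3 of 18705 genes. NR4A receptors are transcription factors with no known natural ligand, so that their activity depends largely on how much of them a cell makes and modifies. Their genes are immediate early genes, switched on quickly and for a short time through cyclic AMP, calcium and growth factor signals. In steroid-producing cells of the ovary, testis and adrenal, NR4A1 is induced by the trophic hormones and binds the promoters of steroidogenic genes. In the rat corpus luteum it is also induced by prostaglandin F2 alpha and activates the gene of a progesterone-degrading enzyme.

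The cells were primary mixed luteal steroidogenic cells from Bos taurus, prepared from corpora lutea taken on days 10 to 12 of the estrous cycle. Every culture received luteinizing hormone (LH) at 10 ng/mL for 24 hours, including the controls. The 4 groups of 4 samples were the control with no further treatment (CON), interferon tau (IFNT, the pregnancy signal of the ruminant conceptus) at 1 ng/mL, prostaglandin F2 alpha (PGF2A, the hormone that ends luteal life) at 10 ng/mL, and both at these doses (IFNT+PGF2A). The series title names the effect of both agents on gene expression in these cells as its subject. RNA of 3 pooled wells made each sample, and 24 hours was the single time sampled.

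Each library held 23786067 to 25906276 reads assigned to genes. Values are normalized counts, reads divided by 1 size factor per library. They are not per length, so levels are compared only within a gene, or as sums over the same list of genes. The samples of each group are numbered 1 to 4 in the labels, which do not say whether a number is an animal. A p-value here therefore speaks of the spread among these 16 samples alone, which may be technical. Samples with the same number nevertheless deviated together across 14122 genes, with correlations of 0.352 to 0.719 over 24 same-number pairs, and are compared here both without and with the number as a block. All 12 steroidogenic luteal markers were detected in every library, with CYP11A1 between 10717 and 43704 normalized counts. Markers of other cells of the corpus luteum were detected too, for example COL1A1 of fibroblasts between 148317 and 504114 and PECAM1 of endothelium between 1084 and 3157. At the other end, CD3E of T cells ran from 8.96 to 38.0.

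NR4A1 was highest with PGF2A and lowest with IFNT in all 4 sample numbers. Its normalized counts in numbers 1 to 4 were 1611, 3371, 4228 and 3607 in control. With IFNT they were 1078, 1622, 1748 and 2268, and with PGF2A 2131, 4601, 5811 and 4096. With both agents they were 1633, 2526, 3368 and 2489. Number 1 was the lowest sample of all 4 groups and number 3 the highest of 3 of them, so the groups overlapped although every number gave the same order at its ends. The group means were 4159 ± 1532 with PGF2A, 3204 ± 1122 in control, 2504 ± 709 with both and 1679 ± 489 with IFNT (SD, n = 4). Behind the values were 1096 to 5850 reads per library.

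NR4A2 moved over a narrower range. In numbers 1 to 4 it stood at 620.7, 489.4, 678.5 and 810.2 normalized counts in control. With IFNT the values were 515.3, 498.3, 521.9 and 506.8, and with PGF2A 626.6, 580.4, 767.8 and 933.5. Both agents together gave 650.5, 537.2, 686.6 and 756.4. Number 2 was lowest in all 4 groups and number 4 highest in 3, and every IFNT sample lay inside the range of the controls. The means were 727 ± 159 with PGF2A, 658 ± 91.5 with both, 649.7 ± 133.1 in control and 510.5 ± 10.3 with IFNT (SD, n = 4), from 494 to 949 reads per library.

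NR4A3 was the member with the largest spread between numbers. Its normalized counts in control were 191.6, 202.7, 368.2 and 511.4 in numbers 1 to 4. With IFNT they were 156.3, 179.8, 232.2 and 199.0, and with PGF2A 191.6, 212.1, 362.5 and 665.9. With both they were 188.5, 172.0, 277.3 and 320.4. Numbers 1 and 2 stayed between 156.3 and 212.1 in all 4 groups, while numbers 3 and 4 reached from 199.0 to 665.9. The means were 358 ± 219 with PGF2A, 318 ± 152 in control, 239.6 ± 71.0 with both and 191.8 ± 32.1 with IFNT (SD, n = 4), from 159 to 677 reads per library.

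**Figure D1:**
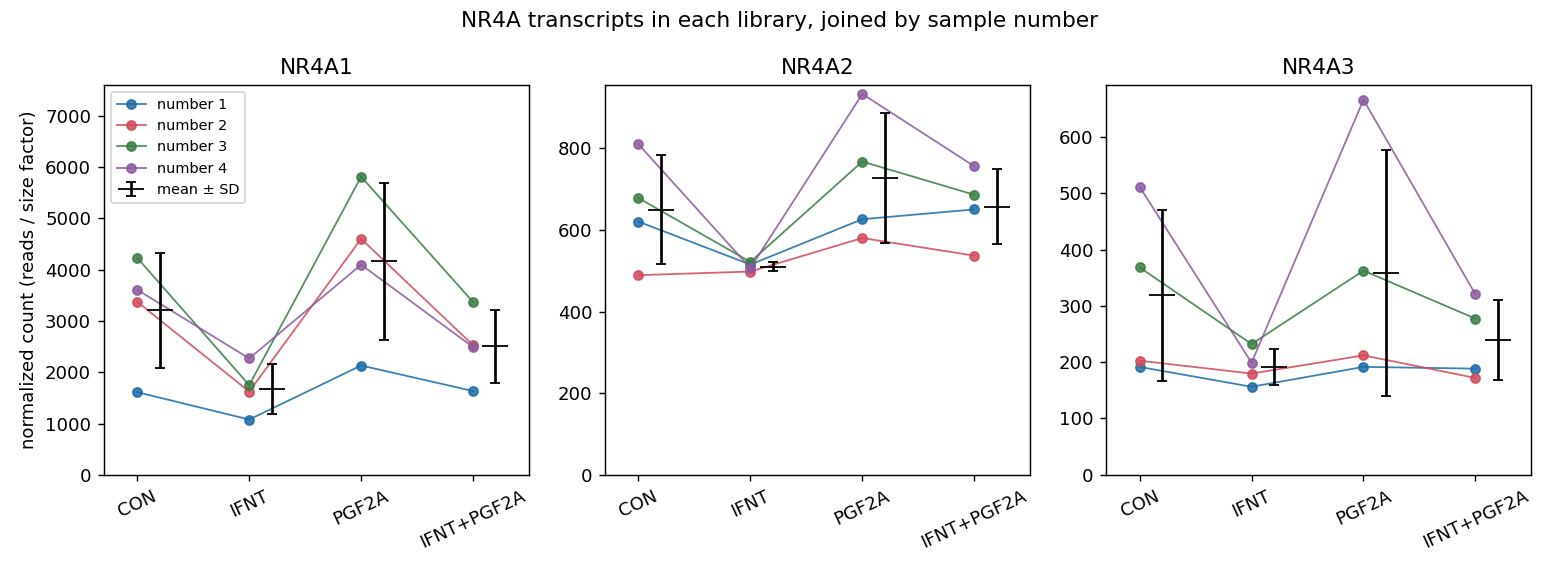
Normalized counts (reads divided by the size factor, linear axis from 0) of NR4A1, NR4A2 and NR4A3 in the 16 libraries, with lines joining samples of the same number and black bars giving the mean ± SD of 4 samples. NR4A1 dips with IFNT and peaks with PGF2A along every line, the 4 NR4A2 samples with IFNT lie between 498.3 and 521.9, and number 4 carries the highest NR4A3 values.

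The effect of IFNT was tested first across both PGF2A states, that is, as the mean of IFNT against control and IFNT+PGF2A against PGF2A. NR4A1 fell by this measure, by 0.79 on the log2 scale to 0.578 of the level without IFNT (SE 0.24, adjusted p = 0.017 in limma with Benjamini-Hochberg adjustment over all genes tested). It was lower in 8 of 8 same-number pairs. With the replicate block the SE was 0.091 and the adjusted p = 7.0e-06 in limma, and the 95% interval ran from -0.99 to -0.59. NR4A3 had a log2 change of -0.53 (SE 0.27, adjusted p = 0.13 in limma), lower in 8 of 8 pairs, and passed with the block (SE 0.14, adjusted p = 0.0047). NR4A2 had -0.23 (SE 0.12, adjusted p = 0.13 in limma), lower in 6 of 8 pairs, and also passed with the block (SE 0.071, adjusted p = 0.015).

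These calls stand on a wide background. Of 14122 genes tested, 38.5% passed the same test of IFNT in either direction and 19.1% as lower, and 57.1% and 29.7% with the block. In all, 24.4% of genes were lower in 8 of 8 pairs. The change of NR4A1 was among the larger falls, with 4.50% of genes at or under it, against 11.0% for NR4A3 and 28.8% for NR4A2. The unblocked call for NR4A1 was lost without number 2 of every group (-0.74, adjusted p = 0.12 in limma) and without number 3 (-0.71, adjusted p = 0.082). Without number 4 the NR4A3 change was -0.31 and the NR4A2 change -0.14, with adjusted p = 0.0028 and 0.037 in limma with the block. The blocked call of NR4A2 was lost without number 3 (-0.21, adjusted p = 0.094 in limma).

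With IFNT alone against control, NR4A1 stood at 0.669, 0.481, 0.414 and 0.629 of the control of its own number. The log2 change was -0.89 (SE 0.34, adjusted p = 0.070 in limma) and passed with the block (SE 0.13, adjusted p = 9.7e-05). In the authors' deposited table of this comparison NR4A1 had a log2 fold change of -0.93 with an adjusted p of 0.023. Of all genes, 24.0% passed without and 43.5% with the block, and 18.6% in the authors' deposited table.

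NR4A3 with IFNT stood at 0.816, 0.887, 0.630 and 0.389 of its own controls, a log2 change of -0.62 (SE 0.38, adjusted p = 0.26 in limma; with the block SE 0.19, adjusted p = 0.019). The authors' deposited table gave -0.73 and an adjusted p of 0.11 for NR4A3. NR4A2 stood at 0.830, 1.02, 0.769 and 0.625, a log2 change of -0.32 (SE 0.16, adjusted p = 0.17 in limma; with the block SE 0.10, adjusted p = 0.019). The authors' deposited table gave -0.35 and an adjusted p of 0.16 for NR4A2. Number 2 was the exception for NR4A2, since its IFNT sample was not below its control. Without number 4 the changes were -0.38 for NR4A3 and -0.21 for NR4A2. The blocked calls of both were lost without number 3 (adjusted p = 0.099 for NR4A3 and 0.11 for NR4A2 in limma), without control 3 (0.056 and 0.0505) and without control 4 (0.073 and 0.072). That of NR4A2 was lost also without number 1 (0.061) and without IFNT sample 3 (0.051).

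When IFNT was added to PGF2A, NR4A1 stood at 0.766, 0.549, 0.580 and 0.608 of the PGF2A sample of its number. The log2 change was -0.69 (SE 0.34, adjusted p = 0.18 in limma), and it passed with the block (SE 0.13, adjusted p = 0.00084), where 40.3% of all genes passed against 20.9% without it. NR4A3 had -0.44, lower in 4 of 4 numbers as were 32.2% of all genes, and NR4A2 -0.13, lower in 3 of 4. Neither passed without the block (adjusted p = 0.47 and 0.64 in limma) or with it (0.086 and 0.33). In the authors' deposited table of this comparison NR4A1 had -0.73 with an adjusted p of 0.052, against 28.6% of genes that passed there. For NR4A3 in number 4, the addition of IFNT gave 0.481 of the PGF2A value, while number 1 stayed at 0.984.

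**Figure D2:**
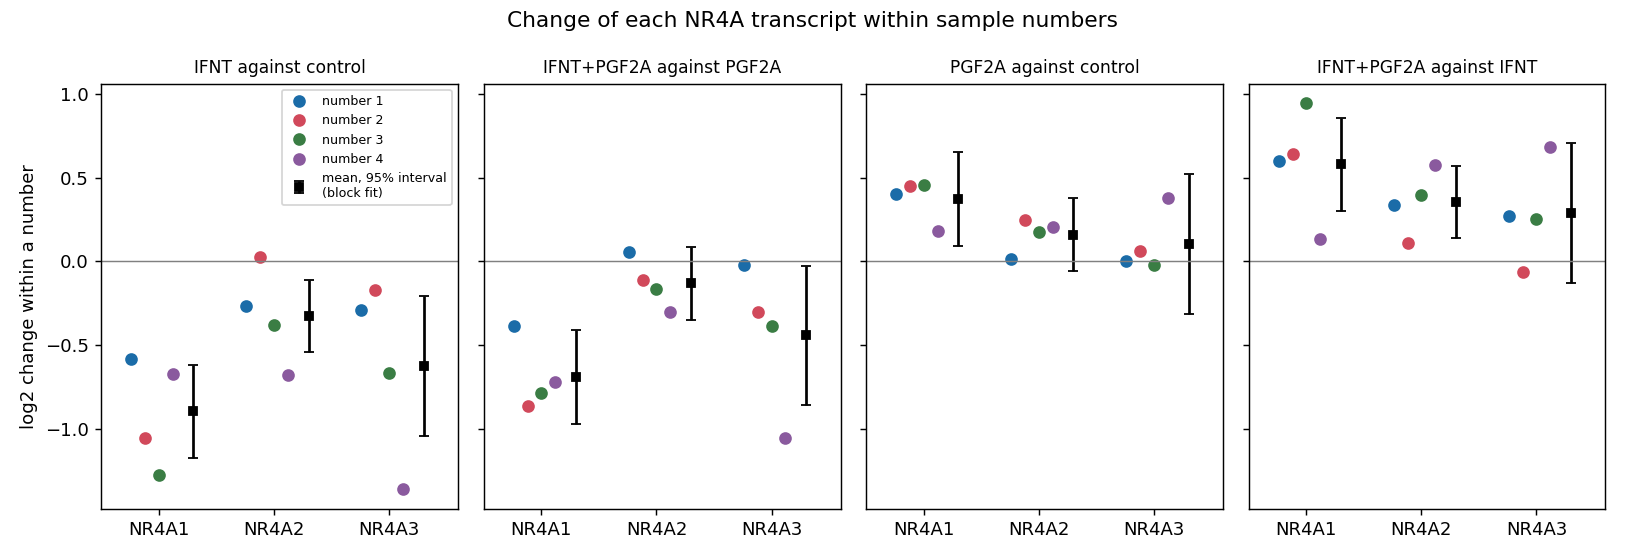
Log2 change of each NR4A transcript within a sample number (coloured points, 4 numbers) in the 4 pairwise comparisons, with black squares and bars for the mean and its 95% interval from limma with the replicate block. All 8 NR4A1 points lie under 0 where IFNT was added and all 8 lie above 0 where PGF2A was added; number 4 gives the lowest NR4A3 points of both IFNT panels.

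Few genes passed for PGF2A, and NR4A1 was among those that rose in the blocked fit. Across both IFNT states its log2 change was 0.48, or 1.39 times the level without PGF2A, and it was higher in 8 of 8 same-number pairs. The test without the block did not call it (SE 0.24, adjusted p = 0.97 in limma), and the test with the block did (SE 0.091, adjusted p = 0.015). Of 14122 genes, 0.0283% passed without the block and 1.96% with it, 1.28% as higher. A rise in 8 of 8 pairs was seen in 3.41% of genes, and 2.27% had a change as high as NR4A1 or higher. Leaving out number 1, 2 or 3 of every group gave changes of 0.47, 0.45 and 0.40 with adjusted p = 0.11, 0.22 and 0.13 in limma with the block. Leaving out PGF2A sample 2 gave 0.45 (adjusted p = 0.051).

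NR4A2 was likewise higher with PGF2A in 8 of 8 pairs, with a log2 change across both IFNT states of 0.26 (SE 0.12, adjusted p = 0.97 in limma; with the block SE 0.071, adjusted p = 0.090). It was thus not called in either fit. With the block it passed when number 4 was left out (0.21, adjusted p = 0.040), and without IFNT sample 2 (0.31, adjusted p = 0.044) or IFNT sample 4 (0.20, adjusted p = 0.048). The blocked change of NR4A2 with IFNT, -0.23, had the same SE and was called. The adjustment depends on how many genes pass, which with the block was 57.1% for IFNT and 1.96% for PGF2A. Calls are thus not comparable between the agents. NR4A3 was higher in 6 of 8 pairs, with a change of 0.20 (SE 0.27, adjusted p = 0.97 in limma; with the block SE 0.14, adjusted p = 0.52). Number 4 gave 0.53 of log2 change for NR4A3 and the other numbers 0.00087 to 0.13.

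PGF2A alone gave NR4A1 at 1.32, 1.36, 1.37 and 1.14 times the control of its number, a log2 change of 0.37 (SE 0.34, adjusted p = 1.00 in limma; 0.55 with the block). With a library or number left out, the change of NR4A1 ran from 0.072 to 0.67 without the block and from 0.30 to 0.44 with it. NR4A2 changed by 0.16 and NR4A3 by 0.11 on the log2 scale, with adjusted p of 1.00 in both fits. In this comparison limma called 0 genes, and 155 had an unadjusted p under 0.05. The edgeR quasi-likelihood test also called 0 and DESeq2 2, and limma with the block called 0.163% of genes. In the authors' deposited table of PGF2A against control the adjusted p was 1.00 for NR4A1, NR4A2 and NR4A3, and 0.0275% of genes passed.

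Added to IFNT, PGF2A gave NR4A1 at 1.52, 1.56, 1.93 and 1.10 times the IFNT sample of its number. The log2 change was 0.58 (SE 0.34, adjusted p = 0.997 in limma; with the block SE 0.13, adjusted p = 0.072). NR4A2 had 0.35, higher in 4 of 4 numbers as were 8.84% of all genes (adjusted p = 0.18 with the block), and NR4A3 0.29, higher in 3 of 4 (0.57). Of all genes 0.00708% passed without and 0.701% with the block. The authors' deposited table of this comparison gave log2 fold changes of 0.57, 0.36 and 0.32 for NR4A1, NR4A2 and NR4A3, each with an adjusted p of 1.00, and 0.0496% of genes passed there. With the block NR4A1 passed when number 4 of every group was left out (0.73, adjusted p = 0.0045 in limma) or IFNT sample 4 alone (0.70, adjusted p = 0.0044).

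The mean with both agents lay between the IFNT and PGF2A means for each member. Against untreated control NR4A1 with both agents stood at 1.01, 0.749, 0.797 and 0.690 of the controls, with a log2 change of -0.31 (SE 0.34, adjusted p = 0.58 in limma; with the block SE 0.13, adjusted p = 0.067). NR4A2 had 0.03 (adjusted p = 0.93; 0.84 with the block) and NR4A3 -0.34 (0.59; 0.19 with the block). Of all genes, 22.1% passed here without and 41.3% with the block. With the block NR4A1 passed in 5 of 20 fits that left out a library or a number, for example without number 1 (-0.43, adjusted p = 0.049 in limma). In the order of means, no neighbouring groups of NR4A1 or NR4A3 passed in either fit with all 16 samples. For NR4A2 the lowest step, from control to IFNT, passed with the block only.

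Whether IFNT and PGF2A acted independently on these genes was asked by the interaction term, the change with IFNT under PGF2A minus that without it. It was 0.21 for NR4A1, 0.19 for NR4A2 and 0.18 for NR4A3, with adjusted p of 1.00 in limma with and without the block. The 95% intervals with the block ran from -0.19 to 0.60 for NR4A1, -0.11 to 0.50 for NR4A2 and -0.41 to 0.77 for NR4A3. The interaction was called for no gene by limma, edgeR or DESeq2. In limma the unadjusted p was under 0.05 for 40 genes, or 219 in the blocked fit. For NR4A1, NR4A2 and NR4A3 the adjusted p in the authors' deposited table of the interaction was 1.00.

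The authors' deposited table of the IFNT main effect gave adjusted p of 0.0076 for NR4A1, 0.14 for NR4A3 and 0.23 for NR4A2, among 30.6% of genes that passed. The authors' deposited table of the PGF2A main effect gave 1.00 for all 3, among 0.139% that passed. The p-values of both tables matched a chi-square with 2 degrees of freedom in 100% of rows, so each asks whether the agent acted in at least 1 state of the other.

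The spread of each member was divided among sample number, IFNT, PGF2A, their interaction and the remainder, as shares of the sum of squares of its log2 values. For NR4A1 these were 44.4%, 36.3%, 13.2%, 0.616% and 5.56%. For NR4A2 they were 41.7%, 17.2%, 22.1%, 3.13% and 15.9%, and for NR4A3 60.1%, 20.6%, 2.81%, 0.595% and 15.9%. The medians over all genes tested were 35.5%, 22.6%, 2.31%, 0.631% and 19.9%. The number thus held the greatest share for each member, and NR4A2 was the member in which PGF2A held more than IFNT.

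**Figure D3:**
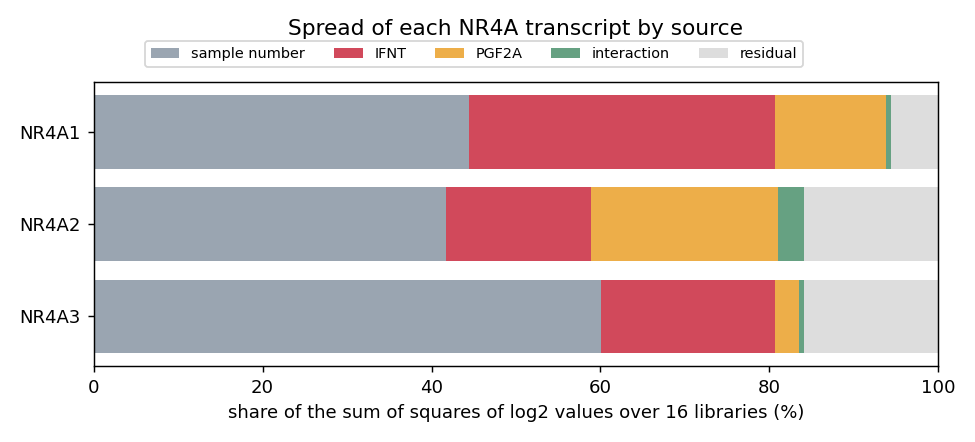
Shares (%) of the sum of squares of log2 values over 16 libraries held by sample number, IFNT, PGF2A, interaction and residual, as stacked bars for each NR4A gene. Sample number holds 44.4%, 41.7% and 60.1%, and IFNT holds 36.3% for NR4A1 against 17.2% for NR4A2.

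Differences between the members were tested within numbers, by exact sign-flip permutation of 4 values, which cannot go below p = 0.125. Across both PGF2A states the IFNT change of NR4A1 was below that of NR4A2 by a mean of 0.56 ± 0.33 (SD, n = 4), in 4 of 4 numbers (exact two-sided p = 0.125, adjusted p = 0.43 over 24 such tests). NR4A1 and NR4A3 differed by -0.26 ± 0.54 (exact p = 0.5), and NR4A2 and NR4A3 by 0.30 ± 0.29 (exact p = 0.125). For PGF2A across both IFNT states, the differences were 0.22 ± 0.30 between NR4A1 and NR4A2, 0.28 ± 0.45 between NR4A1 and NR4A3 and 0.06 ± 0.15 between NR4A2 and NR4A3 (exact p = 0.25, 0.375 and 0.375). Unequal responses of the 3 genes were therefore not shown by this test. The numbers that responded most also differed, since number 3 gave the largest IFNT falls of NR4A1 (-1.03 across both states) and number 4 those of NR4A3 (-1.21) and NR4A2 (-0.49).

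The genes whose log2 levels ran most closely with each member were named by Pearson's r over the 16 samples, which share treatment and sample number. For NR4A1 they included the transcription factor RUNX3 (r = 0.94), the motor protein MYO1E (0.94), CLMP (0.92) and MMD (0.91). For NR4A2 they were LHFPL2 (0.93), SESTD1 (0.87), NR4A3 (0.87), DIAPH3 (0.87) and THBS1 (0.87), so that NR4A3 was the third closest of all genes. The closest to NR4A3 were EEF1A1 (0.92), the mitotic genes BUB1 (0.92), CCNB1 (0.92) and ASPM (0.91), and FNBP1 (0.92). The r of NR4A1 was 0.54 with NR4A2 and 0.67 with NR4A3, which ranked 1447 and 547 among the genes closest to it.

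After the mean of each number was removed, which leaves the treatments and the remainder, the closest genes named here were others. NR4A1 then ran with PMEPA1 (r = 0.98), XIRP1 (0.97) and the keratin KRT8 (0.97). NR4A2 ran with UBASH3B (0.92), PARD6B (0.92), the transcription factor RUNX1 (0.91), LUC7L3 (0.91) and PNRC1 (0.91). NR4A3 ran with EIF2AK3, a kinase of the unfolded protein response (0.96), TMEM131 (0.96), EIF4G3 (0.96), WDR7 (0.96) and FAM168A (0.96). Between NR4A2 and NR4A3 r was 0.88, between NR4A1 and NR4A2 0.73 and between NR4A1 and NR4A3 0.67. Many genes had higher values, since NR4A2 and NR4A3 ranked 1933 and 2547 among the genes closest to NR4A1. NR4A3 ranked 36 for NR4A2, and NR4A2 ranked 317 for NR4A3.

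With IFNT, other immediate early genes did not move as a block with the NR4A genes. Of 30 tested genes of this list, IFNT across both PGF2A states raised 7 and lowered 5, and 9 and 10 with the replicate block. That is near the background, since 38.5% of all genes passed this test of IFNT (19.1% as lower) and 57.1% with the block (29.7% as lower). Their median log2 change was -0.04, beside -0.02 over all genes tested. ZFP36, which destabilizes mRNAs, rose by 1.16 (adjusted p = 6.1e-08 in limma), and the transcription factor KLF4 by 0.82 (0.00012) and the clock gene PER1 by 0.62 (0.00013). IER3, a survival factor, fell by 1.06 on the log2 scale (7.9e-05). The AP-1 subunit FOS fell by 0.35 (0.010), and the zinc finger factor EGR1 had a change of -0.51 (adjusted p = 0.15; 4.8e-05 with the block).

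With PGF2A, 0 of the 30 passed without the block and 6 passed as higher with it, where 1.28% of all genes did, with a median log2 change of 0.15 beside 0.00 over all genes. DUSP5, a phosphatase of the ERK kinases, had 0.79 (adjusted p = 0.16 in limma; 0.00049 with the block). EGR2 had 0.56 (0.76; 0.0091), EGR1 0.38 (0.97; 0.016) and FOSL1 0.37 (0.76; 0.016). FOS, at 0.14, passed in neither fit. In the blocked fit EGR1, DUSP5 and the matrix protein gene CCN2 were, like NR4A1, called lower with IFNT and higher with PGF2A, the last at an adjusted p of 0.04996 for PGF2A.

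**Figure D4:**
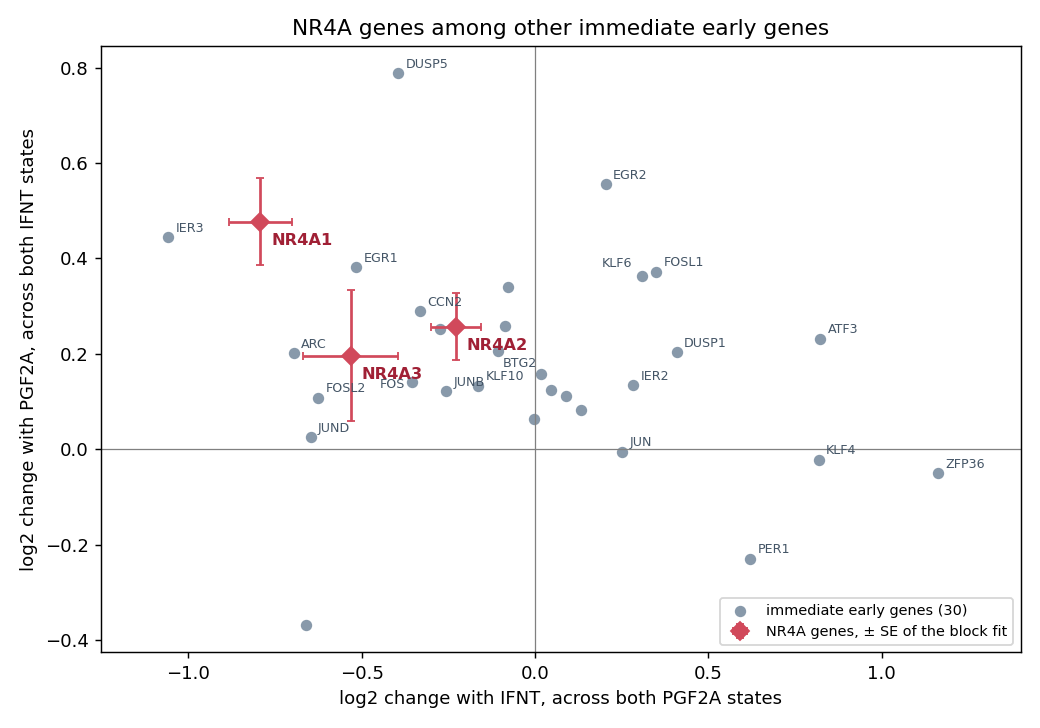
Log2 change with IFNT across both PGF2A states (x axis) against log2 change with PGF2A across both IFNT states (y axis) for 30 immediate early genes (grey) and the NR4A genes (red, with ± SE of the block fit); names mark genes that passed either test with the block. NR4A1 at -0.79 and 0.48 lies near EGR1 and IER3, while ZFP36 at 1.16 and DUSP5 at 0.79 mark the right and upper edges; both axes use the same control samples.

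Among 22 tested genes that feed cyclic AMP and calcium signals to NR4A promoters, IFNT across both PGF2A states raised 4 and lowered 6 (5 and 7 with the block), beside the 38.5% and 57.1% of all genes that passed. Their median log2 change was 0.02. SIK2, a kinase that restrains the CREB coactivators, fell by 0.73 (adjusted p = 0.00048 in limma), while its relative SIK3 rose by 0.41 (0.00071). CAMK1, a calcium-activated kinase, fell by 0.47 (0.0035) and HDAC5, a repressor of MEF2 factors, by 0.40 (0.0038). CREB1, the cyclic AMP response factor, had 0.51 (adjusted p = 0.0515; 0.0025 with the block) and CREM 0.16 (0.28). With PGF2A only HDAC9 of this list passed, and only with the block (0.71, adjusted p = 0.0081). Of 17 receptors and Gq signalling genes, IFNT raised 2 and lowered 2 (4 and 3 with the block), with a median of -0.01. PRKCB rose by 0.91 (0.0092) and IFNAR2, a subunit of the IFNT receptor, by 0.29 (0.044), whereas PLCB1 fell by 0.69 (0.022) and PPP3CC by 0.21 (0.012). The other receptor subunit, IFNAR1, went the opposite way. With IFNT alone against control it had -0.62 (adjusted p = 0.11 in limma; 0.011 with the block). In that comparison IFNAR2 had 0.26 (0.24; 0.0085 with the block).

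The receptors for LH and PGF2A did not pass for IFNT, with LHCGR at -0.16 (adjusted p = 0.61 in limma) and PTGFR at 0.36 (0.49). With PGF2A and the block, PTGFR was lower (-0.89, adjusted p = 0.04996) and the calcineurin regulator RCAN1 higher (0.35, adjusted p = 0.015). LHCGR had -0.37 (0.46 with the block).

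Of 15 tested partners, co-regulators and competing nuclear receptors of NR4A proteins, 0 rose with IFNT and 6 fell (0 and 7 with the block). Their median log2 change was -0.16 beside -0.02 over all genes. Of all genes, 19.1% passed as lower and 29.7% with the block. NR5A1, the steroidogenic factor that binds sites close to those of the NR4A proteins, fell by 0.73 (adjusted p = 9.3e-05 in limma). The corepressor subunits KDM1A and RCOR1 fell by 0.36 (0.00030) and 0.31 (0.0044), and the kinase STK11 by 0.37 (0.0019). RXRA, with which NR4A1 and NR4A2 pair, fell by 0.20 (0.048). NR0B1, a repressor of NR5A1, had -0.09 (0.82) at group means of 18.7 to 29.1 normalized counts. With PGF2A 0 of the 15 passed in either fit.

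Of the listed steroidogenic genes with reported NR4A sites or response, 9 were tested, and IFNT raised 1 and lowered 2 (2 and 3 with the block), near the 38.5% and 57.1% of all genes that passed. Their median log2 change was -0.23. CYP11A1, which begins steroid synthesis, fell by 1.07 (adjusted p = 3.7e-05 in limma) and HSD3B1, which makes progesterone, by 0.43 (0.048). SCARB1, the lipoprotein receptor that takes up cholesterol, rose by 0.39 (0.028). STAR, which carries cholesterol into mitochondria, had -0.78 (adjusted p = 0.13; 2.5e-07 with the block). CYP17A1 had -0.23 (0.77) and the inhibin subunit INHA 0.17 (0.38). With PGF2A across both IFNT states only CYP17A1 passed, with the block (1.5 on the log2 scale, adjusted p = 0.0031). Its means were 105.7 ± 82.8 in control, 301.5 ± 257.5 with PGF2A, 80.9 ± 52.8 with IFNT and 221 ± 130 with both (SD, n = 4). In limma with the block its adjusted p was 0.084 for PGF2A against control and 0.039 for IFNT+PGF2A against IFNT.

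Some markers of cell types also passed for IFNT, beside the 38.5% of all genes that passed and 57.1% with the block. Their part in the NR4A results was not tested. In bulk RNA, fewer cells of a type and less RNA per cell cannot be told apart. Of 12 steroidogenic markers, 1 rose and 4 fell across both PGF2A states (1 and 6 with the block), with summed normalized counts of 109843 to 181182 in control and 104687 to 158071 with IFNT. Such sums follow the most abundant genes and can hide opposite changes. Mean SCARB1 was 49654 in control and 65163 with IFNT, while mean CYP11A1 was 33340 and 16421 and mean STAR 3988 and 2073. STAR, CYP11A1, HSD3B1, SCARB1, INHA, NR5A1, NR5A2, LHCGR and PTGFR of this list were also counted in the lists above. The counts of these lists are thus not separate observations. Of 12 endothelial markers, 6 rose and 0 fell (12 and 0 with the block), with sums of 10979 to 28539 and 13617 to 39925. The counts were 2 and 2 of 10 fibroblast markers (5 and 4) and 2 and 0 of 10 pericyte and smooth muscle markers (5 and 2). Fibroblast sums were 850484 to 1375350 in control and 660288 to 1239700 with IFNT. Those of pericytes and smooth muscle were 113268 to 269419 and 119258 to 322524. Of 8 tested macrophage markers, 3 rose and 0 fell (4 and 1). The sums of all 10 listed were 508 to 703 in control and 609 to 870 with IFNT. Of 10 T and NK markers 8 had a mean under 10 and 2 were tested, both higher. The sums of all 10 were 48.6 to 88.1 in control and 95.4 to 129.8 with IFNT. With PGF2A no marker passed without the block, and with it PTGFR of the steroidogenic list and THY1 of the fibroblast list were lower.

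Markers differed between sample numbers too. Relative to the group means, the median pericyte and smooth muscle marker stood at 0.78 on the log2 scale in number 4, where NR4A3 and NR4A2 were highest in 3 of 4 groups. The median endothelial marker stood at -0.77 in number 1, where NR4A1 was lowest, and the median macrophage marker at 1.09 in number 3, where NR4A1 was highest in 3 groups. Of the 10 macrophage markers, 3 had a mean under 10. Their summed counts were alike in numbers 3 and 2, at 647 to 874 and 650 to 870, although the median marker stood at -0.39 in number 2. The median steroidogenic marker was lowest in number 4, at -0.30. It was highest in number 2, at 0.38, where NR4A2 was lowest in all 4 groups. The median endothelial marker was high in number 2 too, at 0.44. The part of the markers in the differences between numbers was not tested.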

How the data were processed

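RNA was measured in 16 samples, 4 in each of 4 groups, as 100 bp read pairs per the labels. Tools named in the submitters' processing notes are RSEM 1.2.8, Bowtie2 2.2.5, HISAT2 2.0.4 and DESeq2, without order or settings. Strand use, annotation and genome build were not given in the sources used here, so an overlapping or antisense neighbour could add reads to a member. The deposited values per sample are a signal per gene, reads divided by 1 size factor per sample (0.963 to 1.07). They gave whole reads for 100% of values within 0.001 reads. The authors' deposited tables of pairs of groups, scaled on their own 8 samples, also hold log2 fold changes, a statistic (a score) and p-values. Fold changes are absent from those of main effects and the interaction, which do hold p-values and the score. In the table of IFNT+PGF2A and PGF2A the sign of the authors' deposited score opposed the fold change in every row, so the fold change was used.

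Levels and tests come from the 16-sample table (18705 genes; 17768 gene IDs matched the RefSeq table of assembly ARS-UCD2.0, which was used for names only). Genes that reached 10 normalized counts in 4 or more samples (14122) entered limma 3.58.1 (R 4.3.3, intensity trend). The model of log2(normalized count + 0.5) had a mean for each group, used all 16 samples and no block. P-values were adjusted over all genes tested by Benjamini-Hochberg, with a threshold of 0.05. Fold changes are on that log2 scale. The same fit was made with the sample number as a block: same-number samples correlated at 0.352 or more in 24 of 24 pairs, the highest of 72 other pairs was 0.0402, and 16 of 16 samples correlated best with their own number. The labels themselves do not state this pairing. edgeR 4.0.16 and DESeq2 1.42.0 on recovered reads, other pseudocounts, filters and scaling, and leaving out libraries were alternatives. The scripts were checked on simulated data. Reads carry no molecular identifiers.

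The members and gene lists were chosen with earlier results of these data known. Genes named beside the members were the 5 closest by correlation (some of those of NR4A1 are not reported here), up to 4 per list with the smallest adjusted p past the threshold, and a set of named regulators and targets. IFNAR1 was named in addition, as the other receptor subunit beside IFNAR2. Sequences of the members were not used here.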

Additional observations from a re-analysis of the deposited data

Results flagged for a closer look

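The interaction of IFNT and PGF2A on NR4A3, computed within each sample number on the log2 scale, was 0.27, -0.13, 0.28 and 0.30 in numbers 1 to 4. Number 2 stood apart from the others, with a gap to its nearest neighbour of 0.916 of the whole range, above Dixon's 95% critical value for 4 samples. It was the only such value among 36 sets of 4 checked (the levels of the 3 genes in 4 groups and their changes in 8 comparisons), and chance gives about 1 in 20.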

How the results depend on the processing

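The 3 genes in 8 comparisons gave 24 results. Adding the replicate block left the changes at -0.89, -0.32 and -0.62 (NR4A1, NR4A2, NR4A3) for IFNT against control, -0.69 (NR4A1) for IFNT+PGF2A against PGF2A, -0.23 and -0.53 (NR4A2, NR4A3) for IFNT across both PGF2A states and 0.48 (NR4A1) for PGF2A across both IFNT states, and moved these past the threshold; it changed no other call. In edgeR with the replicate block the same 7 passed, at -0.87, -0.31, -0.61, -0.68, -0.22, -0.54 and 0.47. DESeq2 without the block also called NR4A1 for IFNT against control (-0.93, adjusted p = 0.021) and NR4A3 for IFNT across both states (-0.66, adjusted p = 0.041). With the block and only the groups compared, chosen after seeing the data, calls were NR4A1 (-0.89) and NR4A3 (-0.62) for IFNT against control, NR4A1 for PGF2A against control (0.37, adjusted p = 0.035), NR4A1 (-0.69) and NR4A3 (-0.44, adjusted p = 0.028) for IFNT+PGF2A against PGF2A, and NR4A1 (-0.31, adjusted p = 0.014) and NR4A3 (-0.34, adjusted p = 0.035) for IFNT+PGF2A against control. NR4A2 for IFNT against control then did not pass (adjusted p = 0.066). Other pseudocounts, filters, scaling, the fit without trend and edgeR without the block changed no call of these genes. Leave-one-out fits (each library or number, without and with the block) gave -1.20 to -0.70, -0.45 to -0.21 and -0.83 to -0.35 (NR4A1, NR4A2, NR4A3) for IFNT against control, and -0.94 to -0.69, -0.29 to -0.14 and -0.66 to -0.31 for IFNT across both states. For IFNT+PGF2A against PGF2A they gave -0.98 to -0.50 (NR4A1) and -0.68 to -0.081 (NR4A3). For PGF2A across both states they gave 0.33 to 0.62 (NR4A1) and 0.19 to 0.31 (NR4A2), and for IFNT+PGF2A against IFNT 0.38 to 0.77 (NR4A1). For IFNT+PGF2A against control they gave -0.62 to -0.12 (NR4A1), -0.10 to 0.14 (NR4A2) and -0.54 to -0.067 (NR4A3). The sign turned, always far from the threshold, for NR4A3 with PGF2A against control (-0.25 to 0.37), NR4A2 with both agents against control and the interaction of NR4A1 (-0.085 to 0.51) and NR4A3 (-0.088 to 0.54). The other results, none of them called in these fits, ran from 0.072 to 0.67 (NR4A1) and 0.032 to 0.27 (NR4A2) for PGF2A against control, 0.25 to 0.45 (NR4A2) and 0.048 to 0.43 (NR4A3) for IFNT+PGF2A against IFNT, -0.23 to -0.0021 (NR4A2) for IFNT+PGF2A against PGF2A, 0.016 to 0.33 (NR4A3) for PGF2A across both states and 0.080 to 0.32 (NR4A2) for the interaction. The causes were not tested. For NR4A3, at 159 to 677 reads per library, counting error gives coefficients of variation of 5.24% to 7.24%, beside 16.7% to 61.2% measured within groups.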

Other observations

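The NR4A2 level differed little between the 4 libraries with IFNT, with a coefficient of variation of 2.01%, under the 4.43% that counting error alone would give on average for read counts of this size. In control it was 20.5%, with PGF2A 21.9% and with both 13.9%. Of all genes tested, 0.17% had a coefficient of variation at or under that of NR4A2 in the IFNT group, where the median gene had 22.0%. NR4A3 also had its smallest value there, 16.7%, against 47.7% in control and 61.2% with PGF2A, while the values of NR4A1 were 29.1% with IFNT, 35.0% in control and 36.8% with PGF2A. The spread itself was not tested between groups, and the pattern was chosen after the values were seen.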
